A study of Homo sapiens with 4 samples.

Results

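The classical cadherins and their catenin partners were followed in human embryonic stem cells that were pushed towards mesoderm for 2 days with or without IWP2. The set holds 9 genes, found by symbol in a table of 58365 gene loci: the 6 cadherin genes CDH1, CDH2, CDH3, CDH4, CDH6 and CDH11, and the 3 catenin genes CTNNA1, CTNND1 and JUP. The cells were H1, an established human embryonic stem cell line, and every library came from cells grown with activin A and BMP4, ligands that induce mesoderm. There were 2 libraries from cells given the solvent DMSO and 2 from cells given IWP2, a small molecule that blocks Porcupine, the acyltransferase that Wnt ligands need for secretion. No label gave a dose of IWP2 or said that the 2 libraries of a group came from separate cultures, so the p-values measure the spread between these libraries, which may be technical. The comparison addressed how the RNA of cells at this early step differs when Wnt secretion is blocked. All libraries were from day 2, and none was from cells before induction. Words such as rose and fell thus describe IWP2 against DMSO, not a change over time.

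Classical cadherins are transmembrane proteins that join neighbouring cells by binding the same cadherin on the next cell. Inside the cell, their tails bind p120-catenin (CTNND1), which keeps the cadherin at the membrane, and either beta-catenin or plakoglobin (JUP), which in turn bind alpha-catenin (CTNNA1) and so the actin cytoskeleton. Pluripotent and other epithelial cells carry E-cadherin (CDH1), and cells that leave the epithelium at the primitive streak lose it and take up N-cadherin (CDH2), a change known as the cadherin switch.

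All levels are FPKM, fragment counts scaled to gene length and library size, so they can be compared between genes. The libraries had similar relative depths, from 0.889 to 1.10 of the first DMSO library, as read from the steps between low values, and the absolute depth is unknown. On the Wnt response list, 6 of 8 genes were lower with IWP2 (median log2 difference -1.11), against 7.35% of all tested loci. The list was chosen with earlier results of these data known, so it is no independent check of the treatment. SP5, a transcription factor gene that Wnt switches on, was at 53.2 and 47.05 FPKM with DMSO and at 0.379 and 0.363 FPKM with IWP2. LEF1, NKD1, AXIN2, NOTUM and T (Brachyury) also fell, whereas RNF43 (log2 difference -0.17) and ZNRF3 (0.19) were not called. Of the pluripotency factors, SOX2 rose from 0.193 and 0.174 FPKM with DMSO to 35.6 and 36.1 FPKM with IWP2, POU5F1 rose 2.80-fold, and NANOG was not called (adjusted p = 0.183). All 10 primitive streak and mesoderm markers fell, among them APLNR, EOMES, MIXL1 and MESP1, with a median log2 difference of -3.17. T is on this list as well as on the Wnt response list. In such bulk RNA, fewer cells that express a gene and less of its RNA in each cell cannot be told apart.

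Of the 9 genes, 2 were higher with IWP2 (CDH1 and CDH6), 2 were lower (CDH2 and CDH11), and 5 were not called, at a Benjamini-Hochberg adjusted p under 0.05 in a limma fit across all 15980 loci with a mean of at least 0.5 FPKM. All 9 genes passed that minimum. Among all loci tested, 5.81% were called higher and 7.35% lower, 13.2% in all. The FPKM ranges of the groups did not overlap for 8 of the 9 genes, the exception being CTNNA1, and for 58.6% of all loci tested, so this count alone says little about the set. The median log2 difference over all tested loci was -0.01, and the median size of the difference was 0.22.

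**Figure D1:**
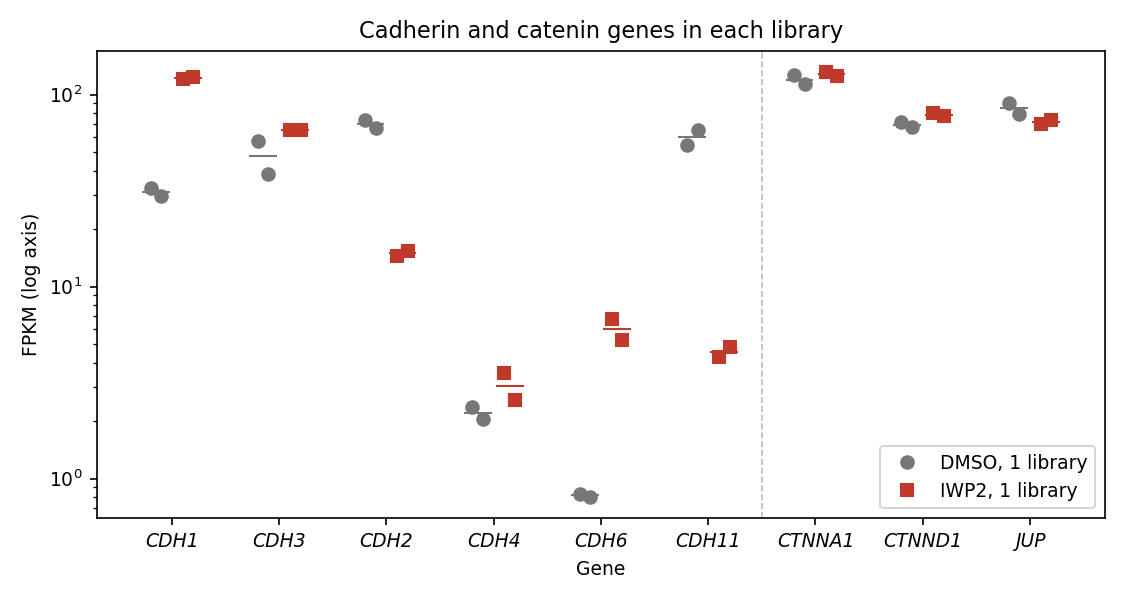
FPKM (log axis) of the 6 cadherin genes, left of the dashed line, and the 3 catenin genes, right of it, in each DMSO library (grey circles) and IWP2 library (red squares), with short lines at the group means. CDH1 and CDH6 were higher and CDH2 and CDH11 lower in both IWP2 libraries, while the catenin genes stayed between 68.0 and 131.1 FPKM in every library.

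CDH1 (ENSG00000039068.18), which encodes E-cadherin, the adhesion molecule of epithelia and of the pluripotent epiblast, lies at chr16:68737225-68835548 (GRCh38). Its level was 32.6 and 29.7 FPKM in the DMSO libraries and 120.4 and 124.1 FPKM in the IWP2 libraries. Both IWP2 libraries were above both DMSO libraries, and the group means were 122 ± 2.64 and 31.1 ± 2.04 FPKM (SD, n = 2 each), a 3.93-fold rise. On the log2(FPKM + 1) scale the difference was 1.94 ± 0.09 (SE), with a 95% interval from 1.72 to 2.16 and an adjusted p of 0.00071 by limma. CDH1 ranked 79 among the 15980 loci by its rise. CDH1 was also expressed in the DMSO libraries, at a level above that of CDH4 and CDH6 in any library.

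CDH2 (ENSG00000170558.8), which encodes N-cadherin, the cadherin of nascent mesoderm, neural tissue and heart, lies at chr18:27950966-28177446. It was at 73.8 and 67.1 FPKM with DMSO and at 14.4 and 15.4 FPKM with IWP2. Every IWP2 library was thus below every DMSO library, and the mean was 4.73-fold lower with IWP2. The log2 difference was -2.17 ± 0.09 (SE), with a 95% interval from -2.41 to -1.93 and adjusted p = 0.000686 by limma. CDH2 RNA was present with IWP2, where its mean of 14.9 ± 0.651 FPKM (SD, n = 2) was the third highest of the 6 cadherins.

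Promoter sequences were read from RefSeq windows (GRCh38.p14) of 250 bases before and 50 bases after each annotated start. The table matched 4 of the 9 genes, CDH2, CDH4, CTNNA1 and JUP, with 10 windows in all. The windows were searched on both strands for the E-box CAGGTG, the letters that SNAI and ZEB repressors are known to bind in CDH1, and for CTTTGAT, a core of the site of TCF and LEF factors. The E-box was in 2 of the 10 windows, 1 of CDH4 and 1 of JUP, against 20.6% of the 35116 windows of all genes. The TCF and LEF core was in 2 overlapping windows of CTNNA1, which share the same site and so are not separate hits. This core was in 2.62% of all windows. Neither motif was in the 2 windows of CDH2. The 250 bases before the downstream start of CDH2, chr18:28036642-28036891 on the minus strand, are shown. CDH2 alone of the called genes had an entry, and these bases lie outside the GENCODE exons of the 9 genes. Exons of other genes were not checked for this stretch. No capitals appear in it, since capitals would mark a motif. These data do not show which start was used.
CDH2: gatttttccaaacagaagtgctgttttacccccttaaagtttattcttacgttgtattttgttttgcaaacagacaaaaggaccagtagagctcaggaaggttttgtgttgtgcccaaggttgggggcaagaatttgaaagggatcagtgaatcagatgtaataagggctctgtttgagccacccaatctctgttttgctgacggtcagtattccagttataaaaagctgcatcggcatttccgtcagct

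CDH11 (ENSG00000140937.13), which encodes OB-cadherin, a type II cadherin of mesenchymal cells, showed the steepest fall of the set. It lies at chr16:64943753-65126112, on the same chromosome as CDH1 and CDH3. Its level was 54.7 and 65.4 FPKM in the DMSO libraries and 4.30 and 4.84 FPKM in the IWP2 libraries. The mean was 13.1-fold lower with IWP2, well beyond the gap between the 2 DMSO libraries. The log2 difference was -3.45 ± 0.13 (SE), with a 95% interval from -3.78 to -3.12 and adjusted p = 0.000439 by limma, and CDH11 ranked 55 among the 15980 loci by its fall.

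CDH6 (ENSG00000113361.12), which encodes K-cadherin, a type II cadherin known from kidney and neural crest, moved the other way. Its level at chr5:31193750-31329146 was 0.830 and 0.805 FPKM with DMSO and 6.78 and 5.24 FPKM with IWP2, and the mean was 7.35-fold higher. The IWP2 libraries were both above the DMSO libraries, at a level that was low beside CDH1 and CDH3. Its log2 difference was 1.94 ± 0.17 (SE), with a 95% interval from 1.50 to 2.38 and adjusted p = 0.00442 by limma. A pseudocount of 0.1 in place of 1 gave a log2 difference of 2.72, since the DMSO values were below 1. The call was lost when any 1 of the 4 libraries was left out (adjusted p from 0.0527 to 0.0797) and when loci of all levels were tested (adjusted p = 0.0585). The difference stayed between 1.78 and 2.10 with a library left out.

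CDH3 (ENSG00000062038.13), which encodes P-cadherin, ends 14608 bases upstream of CDH1 on the same strand, at chr16:68636189-68722616. It was at 57.5 and 38.6 FPKM in the DMSO libraries and at 65.3 and 65.7 FPKM in the IWP2 libraries. The DMSO libraries lay below the IWP2 libraries but far apart from each other, and the log2 difference of 0.47 (95% interval -0.03 to 0.96) was not called (adjusted p = 0.192 by limma). Without the first DMSO library, the difference was 0.75 with an adjusted p of 0.0497, and without the second it was 0.18 with an adjusted p of 0.274. The gap between the DMSO libraries was shared by epithelial genes: 22 of 24 on that list were lower in the second DMSO library than in the first, with a median log2 difference of -0.48, against 49.8% of all tested loci with a median of 0. The DMSO libraries also differed outside that list. The 10 primitive streak and mesoderm markers summed to 1183.8 FPKM in the first and 1500.4 FPKM in the second, although T was lower in the second (21.6 and 18.5 FPKM). The 3 pluripotency factors summed to 773.9 and 581.1 FPKM. The part of these gaps in the CDH3 result was not tested. A second entry with the symbol CDH3, chr16:68696144-68696923 inside the gene, was at 0.995 FPKM or less in every library and was not used.

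CDH4 (ENSG00000179242.15), which encodes R-cadherin, the close relative of N-cadherin in the retina and brain, was low throughout. Its level at chr20:61252426-61940617 was 2.35 and 2.03 FPKM with DMSO and 3.53 and 2.56 FPKM with IWP2. Its log2 difference of 0.33 (95% interval -0.13 to 0.80) was not called, with adjusted p = 0.304 by limma. It was 0.16 without the first IWP2 library and 0.51 without the second. The interval leaves room for a rise of the size seen for CDH3 and does not reach that of CDH1.

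**Figure D2:**
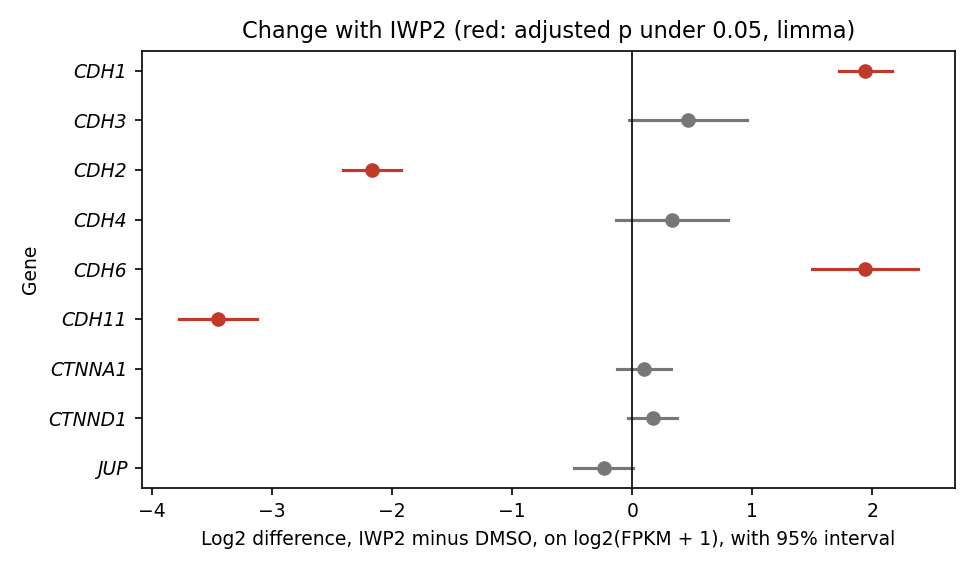
Log2 difference (IWP2 minus DMSO) on the log2(FPKM + 1) scale for each gene, with 95% intervals from the limma fit and called genes in red. CDH1 (1.94) and CDH6 (1.94) lie to the right of 0, CDH2 (-2.17) and CDH11 (-3.45) to the left, and the intervals of the other 5 genes include 0.

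The pool of cadherin RNA changed its makeup but hardly its size. Summed over the 6 genes, the level was 221.7 and 203.6 FPKM in the DMSO libraries and 214.8 and 217.8 FPKM in the IWP2 libraries, so the IWP2 sums fell between the DMSO sums. With DMSO, CDH2 and CDH11 made up 57.9% and 65.1% of the sum, and with IWP2 they made up 8.73% and 9.27%. CDH1 and CDH3 together went from 40.6% and 33.5% of the sum with DMSO to 86.5% and 87.1% with IWP2. The type II members of the set, CDH11 and CDH6, crossed as well. CDH11 RNA was 65.8 and 81.2 times that of CDH6 with DMSO and 0.635 and 0.923 times with IWP2. With IWP2 both were below CDH24, a cadherin outside the set. CDH24 was at 16.1 and 16.5 FPKM with DMSO and at 14.55 and 13.8 FPKM with IWP2.

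The ratio of CDH2 to CDH1 FPKM separated the groups with little spread. It was 2.27 and 2.26 in the DMSO libraries and 0.120 and 0.124 in the IWP2 libraries. N-cadherin RNA was thus above E-cadherin RNA in both DMSO libraries and below it in both IWP2 libraries. These shares and ratios describe the same values as the fit above and carry no test of their own. An exact permutation test of 2 libraries against 2 cannot give a two-sided p below 0.333.

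**Figure D3:**
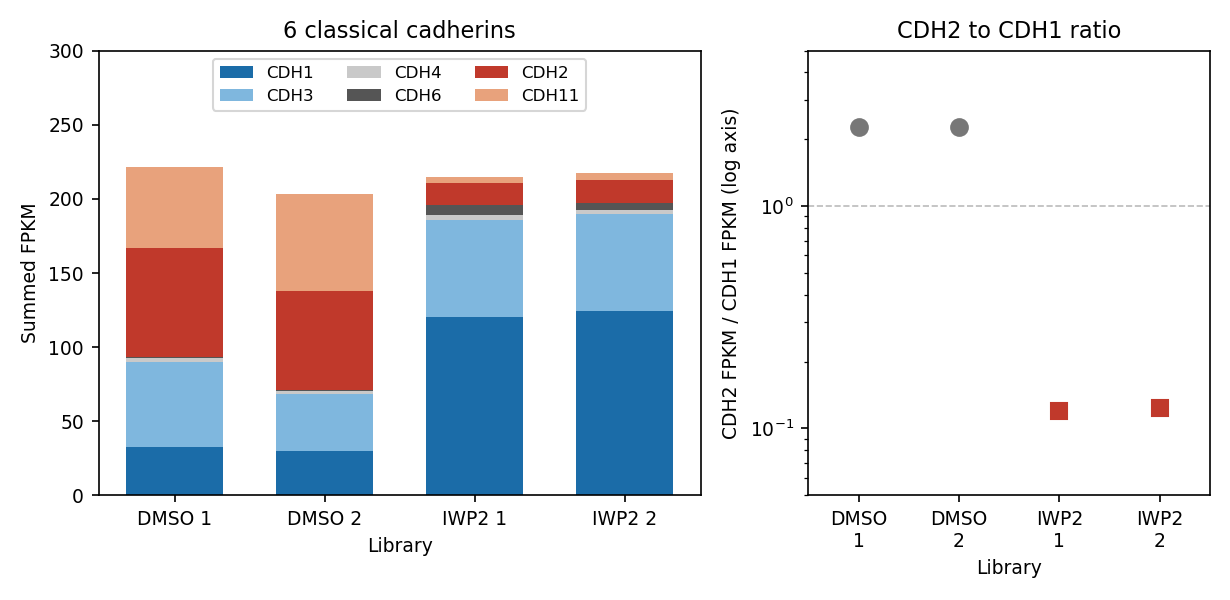
Left, FPKM of the 6 cadherin genes stacked for each library, from 203.6 to 221.7 in total. Right, the ratio of CDH2 to CDH1 FPKM in each library (log axis, dashed line at equal levels), near 2.26 in the DMSO libraries and between 0.120 and 0.124 in the IWP2 libraries.

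The catenin genes showed no called difference. CTNNA1 (ENSG00000044115.20), the alpha-catenin gene at chr5:138610967-138935034, was at 125.9 and 113.5 FPKM with DMSO and at 131.1 and 125.3 FPKM with IWP2, and the groups overlapped. Its log2 difference was 0.10 (95% interval -0.12 to 0.32, adjusted p = 0.512 by limma), and it was 0.17 without the first DMSO library and 0.03 without the second. CTNND1 (ENSG00000198561.13), the p120-catenin gene at chr11:57753243-57819546, was at 71.7 and 68.0 FPKM with DMSO and at 80.2 and 77.2 FPKM with IWP2. Its IWP2 libraries were slightly the higher, by 0.17 on the log2 scale (95% interval -0.03 to 0.37, adjusted p = 0.236). JUP (ENSG00000173801.16), the plakoglobin gene at chr17:41754604-41786931, was at 90.4 and 79.4 FPKM with DMSO and at 70.0 and 73.5 FPKM with IWP2. It was the only catenin gene of the 3 with a negative difference, -0.24 (95% interval -0.48 to 0.01, adjusted p = 0.185), and it was -0.145 without the first DMSO library. For all 3 genes the interval lies within 0.5 of 0 on the log2 scale, and a p above the threshold does not show that the levels were equal.

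The order of the levels within each group shows the exchange. With DMSO, the order by mean was CTNNA1, JUP, CDH2, CTNND1, CDH11, CDH3, CDH1, CDH4 and CDH6, where CDH2 and CTNND1 overlapped between libraries, as did CDH11 and CDH3. With IWP2 it was CTNNA1, CDH1, CTNND1, JUP, CDH3, CDH2, CDH6, CDH11 and CDH4, and no neighbours in this order overlapped. CDH1 thus moved from the seventh place to the second, next to alpha-catenin, and CDH11 from the fifth to the eighth.

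Overlapping genes were listed at low levels. The library kit does not mark strand, so reads from an antisense gene cannot be told from those of its partner. Where exons are shared, the listed levels depend on how reads were assigned and cannot show how much RNA the overlapping genes had. The GENCODE genes that share exonic bases with CDH1, CDH2, CDH3, CDH6, CDH11, CTNNA1 or CTNND1 were listed at 0.592 FPKM or less in every library, and no such gene was found for CDH4 and JUP.

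Other genes of the cadherin superfamily followed no single direction. For comparison, 5.81% of all tested loci were called higher and 7.35% lower. Of 12 other type I and type II cadherin genes, 4 passed the minimum level, 2 of them fell and none rose, with a median log2 difference of -1.04. CDH20 went from 1.34 and 1.59 FPKM with DMSO to 0.0457 and 0.0567 FPKM with IWP2, and CDH22 from 1.41 and 2.25 to 0.136 and 0.0628 FPKM, both type II cadherins like CDH11. CDH8 (log2 difference -0.84) and CDH24 (-0.19) were not called. Among 18 atypical, FAT, DCHS and CELSR genes, 11 were tested, 3 rose and 1 fell, with a median of 0.40. DCHS1, a large cadherin that binds FAT4 in planar polarity, fell 3.91-fold, while CDH23, FAT1 and CELSR2 rose by 1.20, 0.64 and 0.86 on the log2 scale.

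Other catenin and adherens junction genes were called in both directions. Of 19 tested, 5 rose, 2 fell and 12 were not called, with a median log2 difference of 0.25. Calls thus covered 7 of the 19, against 13.2% of all tested loci (5.81% higher and 7.35% lower). VCL, which encodes vinculin, the actin-binding protein recruited to alpha-catenin under tension, rose from 56.3 and 50.4 FPKM to 126.3 and 121.8 FPKM, and ACTN1 (alpha-actinin) rose 1.55-fold. PLEKHA7, a partner of p120-catenin at the apical belt, fell from 10.7 and 9.11 FPKM to 2.63 and 1.50 FPKM, and CAMSAP3, a microtubule minus-end protein of the same complex, rose 1.57-fold. CTNNB1, the beta-catenin gene, named here after its values were seen, was at 125.6 and 131.7 FPKM with DMSO and at 140.7 and 146.5 FPKM with IWP2 and was not called (adjusted p = 0.255). In the desmosome, the other junction that uses plakoglobin, 7 of 14 genes were tested, 1 rose and 1 fell, with a median log2 difference of 0.34. PPL (periplakin) rose and DSP (desmoplakin) fell from 24.0 and 19.8 FPKM to 11.8 and 11.1 FPKM, and DSC2 (-0.54) and PERP (0.69) were not called. Of 13 genes of cadherin cleavage and turnover, 1 was called, PSEN2, a presenilin of the gamma-secretase complex, which rose by 0.61 on the log2 scale, and the median was 0.05. ADAM10, the protease that sheds cadherin ectodomains, PIP5K1C and CBLL1 (Hakai, a ubiquitin ligase of E-cadherin) had log2 differences of -0.25, 0.25 and -0.25 and were not called.

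Transcription factors known to repress or maintain CDH1 were called in both directions. Of 19 tested, 7 fell and 6 rose, with a median log2 difference of -0.49. SNAI1, which encodes a zinc-finger repressor of CDH1, was at 34.8 and 43.5 FPKM with DMSO and at 5.27 and 5.71 FPKM with IWP2. SNAI2 went from 14.4 and 19.0 FPKM to 0.792 and 1.02 FPKM, and EOMES, a T-box factor of the primitive streak, fell 11.4-fold. GRHL2, a grainyhead factor that maintains CDH1 in epithelia, rose from 2.45 and 1.80 FPKM to 11.4 and 10.8 FPKM. SNAI1 and SNAI2 on one side and CDH1 on the other thus differed in opposite directions between the groups; their part in the CDH1 result was not tested.

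All 24 epithelial partner genes were tested, 8 rose, none fell and 16 were not called, with a median log2 difference of 0.88. Of all tested loci, 5.81% were called higher and 7.35% lower. As given beside CDH3, 22 of the 24 were lower in the second DMSO library than in the first. CLDN10, CLDN4 and CLDN6, which encode tight junction claudins, rose 7.28-, 4.58- and 2.17-fold, and RAB25, an epithelial trafficking GTPase gene, rose 3.03-fold. Of 19 mesenchymal genes tested, 11 fell and 2 rose, with a median of -0.96. BMP2, GATA4, ITGA5 (the fibronectin receptor subunit) and COL5A1 fell 24.6-, 20.0-, 4.67- and 9.60-fold. FN1 (fibronectin) and TAGLN (transgelin), named after their values were seen because they are the 2 that rose, were 2.04 and 0.85 higher on the log2 scale with IWP2, the direction of CDH1 and not that of CDH2. Several of the mesenchymal genes were taken from the study's own choice, so their direction is not independent evidence.

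**Figure D4:**
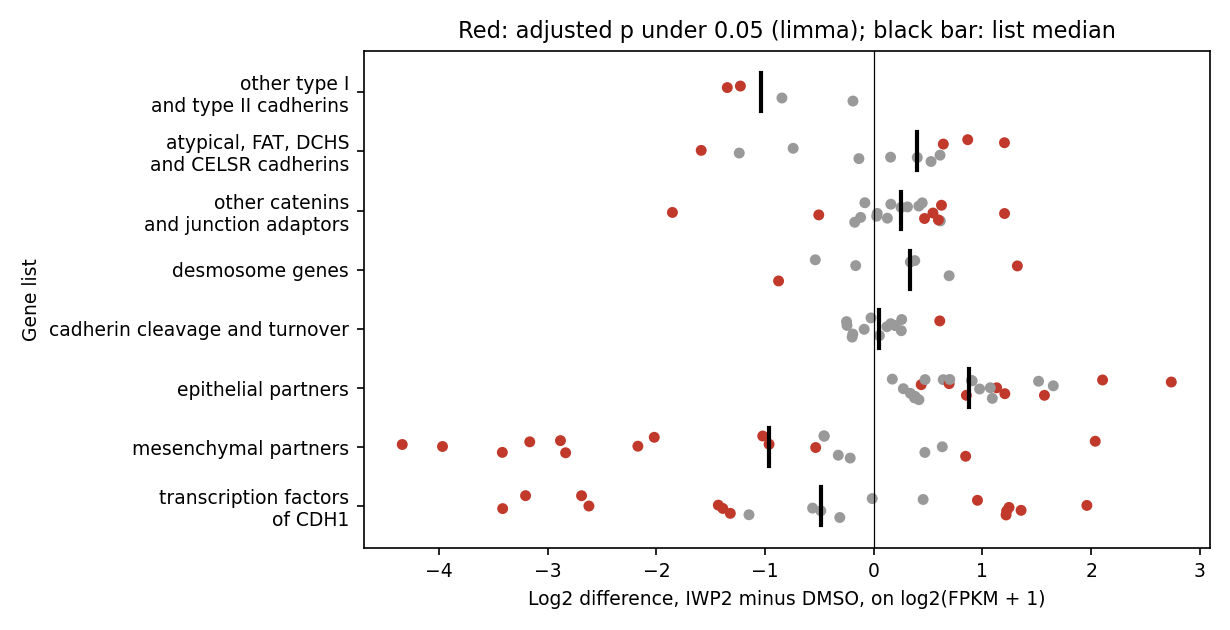
Log2 difference (IWP2 minus DMSO) on the log2(FPKM + 1) scale of each tested gene in 8 lists around the cadherins, with called genes in red and a black bar at each list's median. The median is 0.88 for the epithelial genes and -0.96 for the mesenchymal genes, against 0.25 for the junction adaptors and 0.05 for the cleavage genes.

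The genes with profiles closest to those of CDH1 and CDH2 were found by the distance between log2(FPKM + 1) profiles centred on their own means over the 4 libraries. Nearest to CDH1 were ERRFI1, RABGAP1L and NMRK2, at distances of 0.04, 0.08 and 0.10. ERRFI1, which encodes an inhibitor of the EGF receptor, was at 25.5 and 22.4 FPKM with DMSO and at 92.9 and 95.6 FPKM with IWP2. Nearest to CDH2 were TRAC, CYP1B1 and NRG2, at distances of 0.07, 0.12 and 0.12. TRAC was listed at 0 in both IWP2 libraries and NRG2 at 0.01485 and 0 FPKM, so their likeness to CDH2 rests on the pseudocount. With 4 libraries in 2 groups, such a distance is mostly the size of the difference between the groups.

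Genes listed as markers of other cells that the culture could hold also differed between the groups. The lists describe the libraries, and no cell type was named from them. The summed level of 7 definitive endoderm markers was 1918.0 and 2307.4 FPKM with DMSO and 126.3 and 137.3 FPKM with IWP2. Most of the DMSO sum was CER1, at 1611.6 and 2048.2 FPKM with DMSO and 38.6 and 34.2 FPKM with IWP2. Of the 6 tested, 5 fell, GATA6, CER1, FOXA2 and CXCR4 among them, with a median log2 difference of -2.06. SOX17, named here outside the rule, was not called (adjusted p = 0.167 by limma). It was at 154.7 and 104.2 FPKM with DMSO and at 79.7 and 94.9 FPKM with IWP2. The summed level of 10 amnion and trophoblast markers was 84.7 and 92.0 FPKM with DMSO and 94.3 and 99.5 FPKM with IWP2. Of the 7 tested, 3 rose (KRT7, TFAP2A and GABRP), CDX2 fell and 3 were not called, with a median log2 difference of -0.09. Of 7 neuroectoderm markers, 3 were tested, OTX2 fell and NES rose, with a median log2 difference of -0.89. PAX6, at 1.33 and 0.646 FPKM with DMSO and 0.0838 and 0.0278 FPKM with IWP2, was not called (adjusted p = 0.078 by limma). The 7 summed to 156.3 and 149.2 FPKM with DMSO and to 139.3 and 128.8 FPKM with IWP2. Nearly all of this was NES and OTX2. SOX1, ZIC1, LHX2 and SIX3 were at 0.45 FPKM or less in every library and were not tested. The 7 endothelial markers summed to 12.4 FPKM or less in every library, TEK alone of the 4 tested fell, and CD34 (log2 difference -0.66), TIE1 (-0.57) and SOX7 (-0.40) were not called, with a median of -0.61. CDH5, the cadherin that defines endothelium, named here outside the rule, was at 0.492 FPKM or less. The part of such cells in the cadherin values was not tested.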

How the data were processed

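RNA-seq of 4 H1 libraries (2 DMSO, 2 IWP2, day 2) was analysed. The authors deposited 1 table of FPKM values; its header names no unit, and FPKM was read from the values, which are not whole and sum to different totals. Per the labels, the submitters' processing notes name BWA, Bowtie and RSEM and the build hg19, but 97.4% of the 58102 gene identifiers found in GENCODE 29 have the GRCh38 start and end, so coordinates are GRCh38. Columns marked as without IWP2 were taken as the DMSO group and numbered by their column names. Where a symbol had several loci, the one with the highest mean was used.

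Differences (IWP2 minus DMSO) were fitted with limma 3.58.1 (R 4.3.3; prior variance following the mean) on log2(FPKM + 1) over loci with a mean of at least 0.5 FPKM, two-sided, with Benjamini-Hochberg adjustment over all of them. This scale understates changes of low genes. The fit was tested on simulated data. FPKM carry no counts, so no counting interval is given.

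The members and lists were chosen with earlier results of these data known. From each list, the 4 tested genes with the lowest p were named, and all genes of the Wnt response and pluripotency lists. Alternatives were another pseudocount, other filters, median-ratio scaling, no trend, each library left out and a replicate block.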

Additional observations from a re-analysis of the deposited data

How the results depend on the processing

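With 2 libraries a group, the count of called loci depended strongly on the samples. It was 2104 as reported, 381 when all 28917 loci above 0 were tested (31.0% of them higher, against 44.2%), and from 94 to 696 with 1 library left out. The smallest counts came without an IWP2 library (94 and 119), and those without the second or first DMSO library were 432 and 696, with 19.1% to 41.1% of the calls higher. In these fits the lone library is assumed to vary like the other group. Another pseudocount, a minimum of 1 FPKM, median-ratio scaling and no trend gave 1849 to 2141. CDH1, CDH2 and CDH11 kept their direction and their call in every alternative, at adjusted p up to 0.0475 with a library left out. The number of members called higher was 1 instead of 2 without the filter and from 1 to 2 with a library left out. It was also 2 without the first DMSO library, when CDH3 was called in place of CDH6, and the number called lower was 2 throughout. Of 90 member values under alternatives, 84 stayed on the same side of the threshold and none changed direction; the others are the CDH6 and CDH3 values given above. The CDH2 to CDH1 ratio was 2.26 to 2.27 (DMSO) and 0.120 to 0.124 (IWP2) with a library left out.

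The replicate numbers are shared by name alone. The deviations of same-numbered libraries from their group means correlated at 0.142 over 15980 loci, and nothing in the labels ties them. A replicate block gave 1901 called loci and changed no call among the 9 genes. How many fragments lie behind a value is unknown.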

Other observations

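Beside the gap between the DMSO libraries in epithelial genes, 7 of the 24 epithelial genes were lower in the second IWP2 library than in the first, with a median log2 difference of 0.05. Of the 19 mesenchymal genes tested, 10 were lower in the second library than in the first in either group. Among the adherens junction adaptors, 12 of 19 were lower in the second DMSO library (median -0.09) and 13 of 19 in the second IWP2 library (median -0.06). Over all tested loci, 49.8% were lower in the second DMSO library and 47.6% in the second IWP2 library. Whether these gaps differ between the groups was not tested.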
